A study of Homo sapiens with 6 samples.

Results

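The transcripts of 36 aminoacyl-tRNA synthetase genes were followed in PC-3 cells treated with inhibitors of the amino acid transporter ASCT2. The genes were taken by name from a list of cytosolic and mitochondrial synthetases, and all 36 were found among the 19491 gene rows of the deposited tables. By name, 20 encode cytosolic enzymes and 16, with symbols ending in 2, encode mitochondrial enzymes. GARS and KARS each encode both the cytosolic and the mitochondrial enzyme for their amino acid and were counted with the cytosolic names. PC-3 is an established line of human prostate cancer, derived from a bone metastasis. Untreated cells were the control, and the treated cells were cultured for 48 h with 1 mM L-γ-glutamyl-p-nitroanilide (GPNA) or with 10 mM benzylserine (BenSer). All the groups were the same line, without a genetic change made by the study, and 2 libraries per group were labelled.

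Aminoacyl-tRNA synthetases attach each amino acid to its tRNA and so supply every ribosome with charged tRNA. Cytosolic and mitochondrial protein synthesis mostly use separate enzymes, both encoded by nuclear genes, and the mitochondrial enzymes are imported into the organelle. ASCT2 (SLC1A5) exchanges alanine, serine, cysteine, threonine, asparagine and glutamine, and LAT1 (SLC7A5) exchanges large neutral amino acids such as leucine, valine and tyrosine. When an amino acid runs short, uncharged tRNA activates the kinase GCN2 (EIF2AK4), the transcription factor ATF4 is made, and genes with a C/EBP-ATF response element, several synthetase genes among them, are transcribed more.

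The core of that element, TGATGNAA, was looked for on both strands of the RefSeq promoter windows, which run from 250 bases before to 50 bases after a gene's start. The windows that held it are shown because the cytosolic and mitochondrial members differ in them. The core was found in 7 of 16 cytosolic members with an entry (43.8%) and in 1 of 14 mitochondrial members (7.14%), against 3.62% of all 35116 windows and 3.0% of the 12339 genes of the tables that have an entry. Each line gives 30 bases around the match, 5′ to 3′ on the strand of the gene, with its position on GRCh38.p14, and the capitals mark the 8 bases that match the core or its reverse complement.
AARS (chr16:70289675-70289704, minus strand): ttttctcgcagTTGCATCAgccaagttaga
CARS (chr11:3057407-3057436, minus strand): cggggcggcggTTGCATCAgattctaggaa
GARS (chr7:30594834-30594863, plus strand): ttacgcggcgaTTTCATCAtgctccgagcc
IARS (chr9:92293692-92293721, minus strand): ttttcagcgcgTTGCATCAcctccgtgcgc
MARS (chr12:57488053-57488082, plus strand): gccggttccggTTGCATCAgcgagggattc
NARS (chr18:57621804-57621833, minus strand): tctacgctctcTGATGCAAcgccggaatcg
TARS (chr5:33440956-33440985, plus strand): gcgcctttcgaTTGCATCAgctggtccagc
YARS2 (chr12:32756076-32756105, minus strand): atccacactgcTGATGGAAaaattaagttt

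In 6 of the 7 cytosolic windows the match was the same 8 bases, TTGCATCA or its reverse complement TGATGCAA, which 0.866% of all windows held. The match lay across the annotated start in CARS and MARS, within the first bases of the transcript in TARS and NARS, and before the start in AARS, GARS and IARS. DARS, LARS, VARS, YARS, AARS2 and VARS2 were without an entry. These windows are on another genome build than the gene tables, which the authors mapped to GRCh37 (hg19), so the positions are not interchangeable. A match is a description of these letters and not a measured binding site.

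The authors prepared stranded total RNA libraries and deposited the reads of each gene scaled to the library total, as counts per 1000000 reads (CPM). The 6 libraries held 23077986 to 32178154 reads, of which 51.6% to 52.7% lay on the listed genes. Within a group the libraries were about as alike as repeated sampling of 1 pool of reads would make them. Chi-square over its degrees of freedom was 1.05 to 1.06 for all genes and 0.631 to 1.27 for the members, whereas libraries of different groups gave 5.5 to 20.7 for all genes. Each group was thus treated as 1 sample, and the differences between treatments have neither a replicate check nor a p-value. The keratins KRT8, KRT18 and KRT19 and vimentin (VIM), all known from this line, had 108 to 669 CPM in the control, whereas KLK3, PTPRC, PECAM1 and CD3E were not listed.

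In untreated cells the synthetases took 0.263% of all reads, and the cytosolic members were the more abundant. Per length, taking the CPM of a gene over the kilobases of its canonical transcript, the cytosolic members had a median of 33.1 CPM per kilobase (range 5.88 to 96.0), against 4.94 (0.269 to 36) for the mitochondrial members. Threonyl-tRNA synthetase, TARS, was the highest, with 97.1 and 95 CPM per kilobase in the 2 control libraries. GARS followed with 83.8 and 83.5, then SARS with 63.9 and 65.5 and NARS with 63.2 and 61.0. The libraries of TARS did not overlap those of GARS, and SARS did not overlap NARS, whereas NARS overlapped FARSA.

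The order below these was FARSA (59.7 CPM per kilobase), EPRS (56.2), KARS (43.5), QARS (42.2) and AARS (37.1). MARS (36.5) and IARS2 (36) were next, and the ranges of their control libraries overlapped. IARS2, the mitochondrial isoleucyl-tRNA synthetase, was the highest mitochondrial member and stood above 10 of the 20 cytosolic members. CARS2 (18.3) was above its cytosolic partner CARS (14.4), and TARS2 (15.0) was above CARS and HARS (11.7). FARSB, which encodes the beta subunit of phenylalanyl-tRNA synthetase, was the lowest cytosolic member at 5.88, far below its partner subunit FARSA, and its annotated transcript is the longest of the members at 6761 bases. SARS2 was the lowest of all, at 0.269 CPM per kilobase and 24 reads in the control libraries together. Of the exon bases of SARS2, 48.2% are shared with another annotated gene on the same strand, and the share is 63.0% in VARS2, so the levels of both depend on how such reads were counted.

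**Figure D1:**
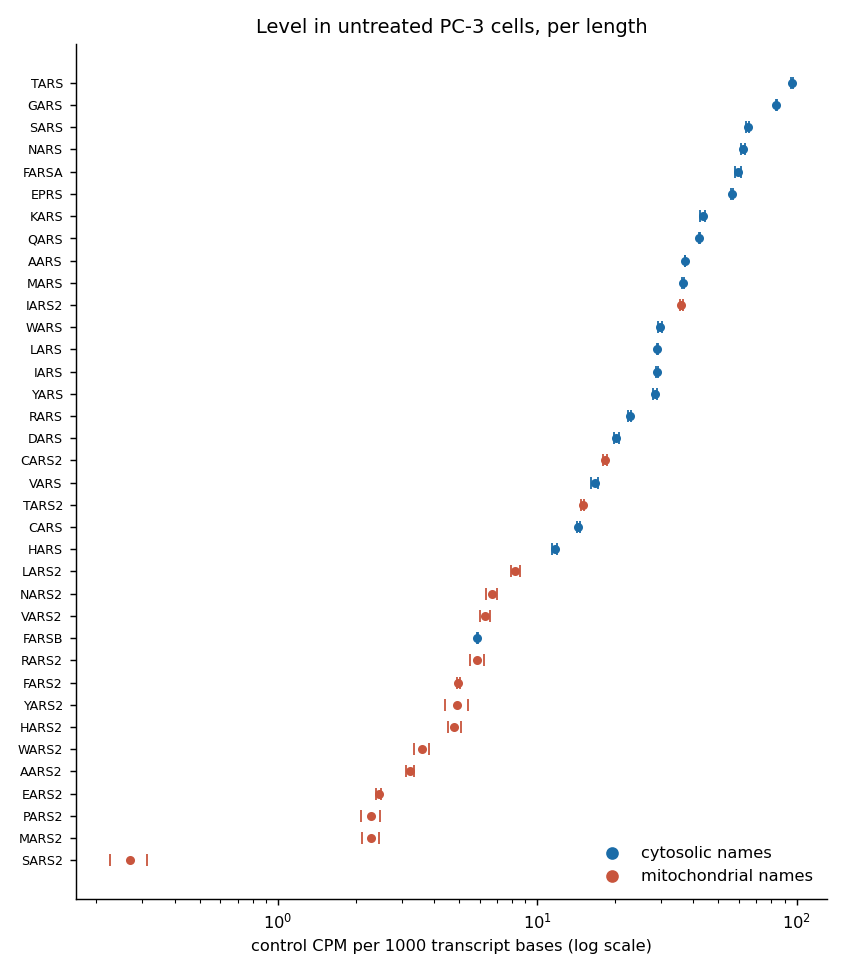
Level of each member in untreated PC-3 cells, as CPM per kilobase of the canonical transcript on a log axis. Points are the mean of the control libraries and ticks the libraries themselves, with cytosolic names in blue and mitochondrial names in red. TARS is at the top with 96.0, IARS2 is the highest mitochondrial gene with 36, and SARS2 is at the bottom with 0.269.

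With GPNA the synthetase genes differed little from the control, the highest being cytosolic. Differences are given as the log2 of the mean CPM plus 1 in treated cells minus that in the control, with a 95% interval that covers counting error only. No member was 1.5-fold higher or 1.5-fold lower, thresholds that 0.34% and 0.0637% of the 18828 genes compared reached. None was at least 25% higher or 20% lower (a log2 difference of 0.32) either, against 2.86% and 2.74% of all genes. With a pseudocount of 0.1 instead of 1, SARS2, which had 24 reads in the control, was 1.5-fold lower, as were 652 of the 18828 genes. The interval lay above 0 for 9 members, all cytosolic, and below 0 for 12, of which 8 were mitochondrial. Over all genes the shares were 9.78% above and 20.1% below. The balance depends on the scaling. Under TMM scaling 14 members were above 0, all cytosolic, and 7 below, of which 3 were mitochondrial (AARS2, MARS2 and NARS2). Of the 18828 genes, 2566 were then above and 2758 below. Such counts favour genes with many reads, and the cytosolic synthetases are abundant genes. The 20 cytosolic members had 104374 control reads together and the 16 mitochondrial members 17362, so the counts also favour the cytosolic members over the mitochondrial.

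GARS, the glycyl-tRNA synthetase of both compartments, had the highest difference with GPNA. It had 204 and 203 CPM in the control libraries and 247 and 242 with GPNA, a log2 difference of 0.26 (0.22 to 0.30). Both GPNA libraries were above both control libraries, as in 4212 of the 18828 genes compared. In another 6470 genes both were below. YARS, for tyrosine, had 68.5 and 70.7 CPM in the control and 78.1 and 82.4 with GPNA (0.20, interval 0.14 to 0.27). AARS, for alanine, had 127 and 128 CPM in the control and 145 and 147 with GPNA (0.19, 0.14 to 0.24). For both genes the GPNA libraries lay above the control libraries.

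SARS, the seryl-tRNA synthetase, had 122 and 125 CPM in the control and 142 and 140 with GPNA (0.18, 0.13 to 0.23). EPRS, a fused enzyme that charges both glutamate and proline and sits in the multisynthetase complex, had 276 and 271 CPM in the control and 309 and 306 with GPNA (0.17, 0.14 to 0.20). CARS, for cysteine, had 39.8 and 39.2 CPM in the control and 43.9 and 43.5 with GPNA (0.14, 0.054 to 0.23). The groups did not overlap for any of these genes. LARS, TARS and IARS also had intervals above 0, with differences of 0.14, 0.13 and 0.11.

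At the other end, VARS, the valyl-tRNA synthetase, had 66.3 and 70.8 CPM in the control and 54.8 and 57.1 with GPNA (-0.29, -0.36 to -0.22). FARSA, the alpha subunit of phenylalanyl-tRNA synthetase, had 105 and 111 CPM in the control and 90.1 and 86.7 with GPNA (-0.29, -0.34 to -0.23). The mitochondrial methionyl-tRNA synthetase MARS2 had 6.37 and 7.45 CPM in the control and 5.16 and 6.17 with GPNA (-0.25, -0.45 to -0.047). The groups were apart in each, but in MARS2 by less than the gap between its control libraries. FARSB was lower as well (-0.23). KARS, the lysyl-tRNA synthetase of both compartments, had 88.5 and 84.8 CPM in the control and 74.9 and 77.4 with GPNA (-0.18, -0.25 to -0.12), so the genes that serve both compartments differed in sign.

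With BenSer the differences were larger and went both ways among the cytosolic enzymes. No member was 1.5-fold higher, against 1.96% of the 18976 genes compared, and VARS was 1.5-fold lower, against 1.58% of all genes. AARS, CARS, GARS, MARS and YARS were at least 25% higher, which is 5 of 36 members against 7.36% of all genes. Another 5, VARS, FARSB, FARSA, CARS2 and WARS2, were at least 20% lower, against 10.3% of all genes. The added 1 CPM holds back the low genes, and with a pseudocount of 0.1 SARS2 was also 1.5-fold lower and NARS2 also at least 20% lower. That pseudocount gave 5 members at least 25% higher and 7 at least 20% lower, beside 2851 and 3853 of the 18976 genes. At 1.5-fold lower it gave 2 members and 1397 genes. Under TMM scaling WARS joined the higher genes, and FARSA and CARS2 left the lower ones. That made 6 members higher and 3 lower, beside 1688 and 1521 of the 18976 genes. The 5 higher genes named first were all cytosolic, and none of the 16 mitochondrial members was at least 25% higher. The interval lay above 0 for 10 members and below 0 for 15, where 18.2% and 25.8% of all genes did so. Over all 18976 genes, both BenSer libraries were above both control libraries in 5406 and below both in 7111.

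CARS, the cysteinyl-tRNA synthetase (ENSG00000110619, GRCh37 chr11:3022152-3078843), had the highest difference with BenSer. It had 54.7 and 54.9 CPM in the BenSer libraries, above the 39.8 and 39.2 of the control, a log2 difference of 0.46 (0.38 to 0.54). YARS (GRCh37 chr1:33240838-33283632) had 92.1 and 92.7 CPM with BenSer (0.40, 0.34 to 0.47), all above the control. GARS had 266 and 266 CPM with BenSer (0.38, 0.35 to 0.42), also above both GPNA libraries.

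AARS had 167 and 165 CPM with BenSer (0.38, 0.33 to 0.42), above its control and its GPNA libraries. MARS, the methionyl-tRNA synthetase of the multisynthetase complex, had 103 and 101 CPM in the control, 105 and 104 under GPNA and 132 and 131 under BenSer. Its difference was 0.36 with BenSer (0.31 to 0.41) and 0.035 with GPNA (-0.0215 to 0.091). ARHGAP9 and DDIT3 overlap MARS on the opposite strand, neither over more than 7.38% of its exon bases. DDIT3, a stress factor that is itself a target of ATF4, had 5.66 CPM in the control and a difference of 0.81 with BenSer.

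WARS, the tryptophanyl-tRNA synthetase, had 80.0 and 76.9 CPM in the control, 81.0 and 79.6 under GPNA and 95 and 97.1 under BenSer. The difference was 0.29 with BenSer (0.23 to 0.35), and with GPNA the libraries overlapped the control (0.034, -0.030 to 0.098). WARS is known as an interferon-induced gene. The 12 interferon markers looked at here were all 1.5-fold higher with BenSer, with a median difference of 1.14, and had a median of 0.63 with GPNA. Their part in the WARS value was not tested. TARS, which had 259 and 254 CPM in the control and 305 and 303 with BenSer (0.24, 0.21 to 0.28), and SARS (0.12), IARS (0.084) and the mitochondrial prolyl-tRNA synthetase PARS2 (0.20) completed the members whose interval lay above 0.

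VARS (ENSG00000204394, GRCh37 chr6:31745295-31763529) was the lowest member with BenSer and level with FARSA as the lowest with GPNA. It had 42.2 and 42.6 CPM with BenSer, below its GPNA libraries and further below its control libraries, and its log2 difference was -0.68 (-0.75 to -0.61). FARSB had 39.6 and 39.9 CPM in the control, 32.9 and 34.6 under GPNA and 28.1 and 26.7 under BenSer (-0.52, -0.61 to -0.43). The other subunit of the same enzyme, FARSA, had 86.0 and 86.0 CPM with BenSer (-0.33, -0.38 to -0.27). Both subunits were thus lower than the control in every treated library, FARSB by more with BenSer than with GPNA, and FARSA by about as much with both (BenSer against GPNA -0.040, -0.096 to 0.016).

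WARS2, the mitochondrial tryptophanyl-tRNA synthetase, had 10.7 and 9.36 CPM in the control, 10.0 and 9.27 under GPNA and 6.59 and 8.11 under BenSer. It was the lowest mitochondrial member with BenSer (-0.40, -0.57 to -0.23), its libraries did not overlap, and 464 reads lay behind the control value. KARS had 70.6 and 70.8 CPM with BenSer (-0.29, -0.35 to -0.23). EPRS had 278 and 275 CPM with BenSer, which overlapped its control libraries (0.015, -0.018 to 0.048).

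QARS, the glutaminyl-tRNA synthetase, charges the amino acid whose uptake through ASCT2 the study set out to block. It had 103 and 104 CPM in the control, 105 and 108 under GPNA and 96.5 and 97.3 under BenSer. The difference was 0.039 with GPNA (-0.0165 to 0.095) and -0.093 with BenSer (-0.15 to -0.038), so neither reached the smaller thresholds. No mitochondrial partner of QARS is known, because mitochondria charge that tRNA through glutamate and the amidotransferase of QRSL1, GATB (listed as PET112) and GATC. EARS2, which attaches the glutamate, had a difference of 0.0785 with GPNA and -0.135 with BenSer, and both intervals reached 0. QRSL1 and PET112 were lower with BenSer (-0.17 and -0.21) and GATC was higher (0.23).

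**Figure D2:**
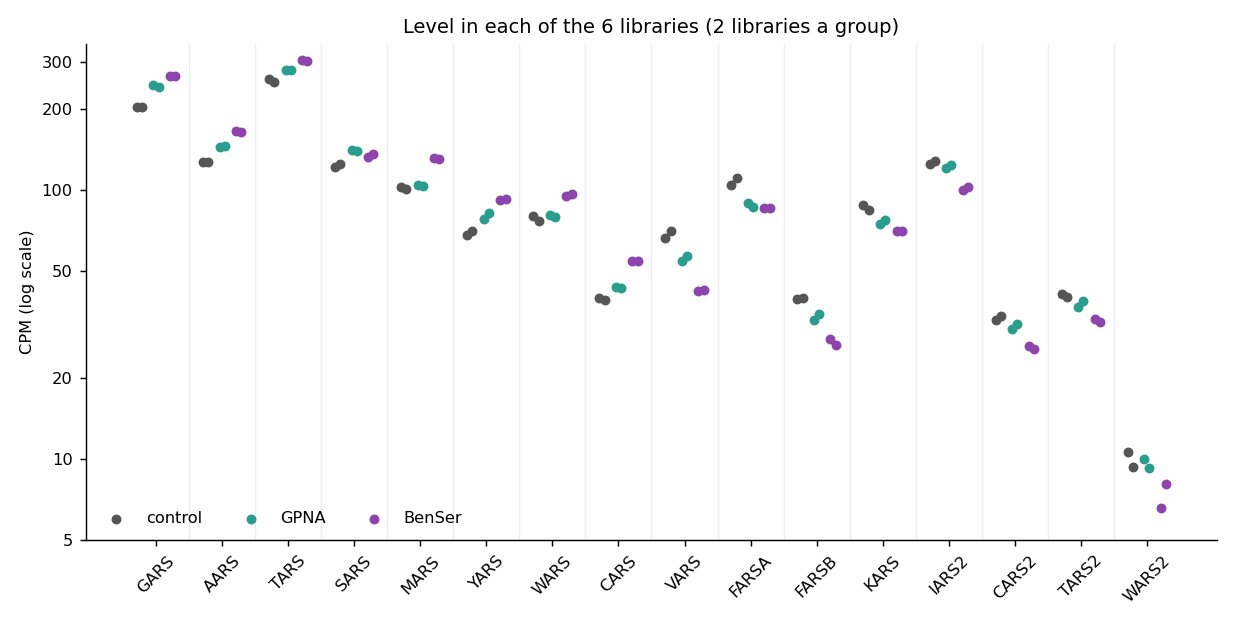
CPM on a log axis of 16 members in each of the 6 libraries, coloured by group (control grey, GPNA green, BenSer purple). BenSer libraries of CARS stand at 54.7 and 54.9 against 39.8 and 39.2 in the control, those of VARS at 42.2 and 42.6 against 66.3 and 70.8, and the libraries of a group lie close together except in WARS2.

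The remaining cytosolic enzymes stayed close to the control or differed in sign between the compounds. LARS, for leucine, had 139 and 138 CPM in the control, 151 and 153 under GPNA and 124 and 122 under BenSer. Its interval was above 0 with GPNA (0.14, 0.088 to 0.18) and below 0 with BenSer (-0.17, -0.22 to -0.12). DARS, for aspartate, also lay above 0 with GPNA and below 0 with BenSer (0.069 and -0.063), but both intervals reached 0. NARS, for asparagine, was flat with both compounds (0.0059 and 0.015, with overlapping libraries), HARS had -0.095 and -0.17, and RARS -0.055 and -0.14.

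**Figure D3:**
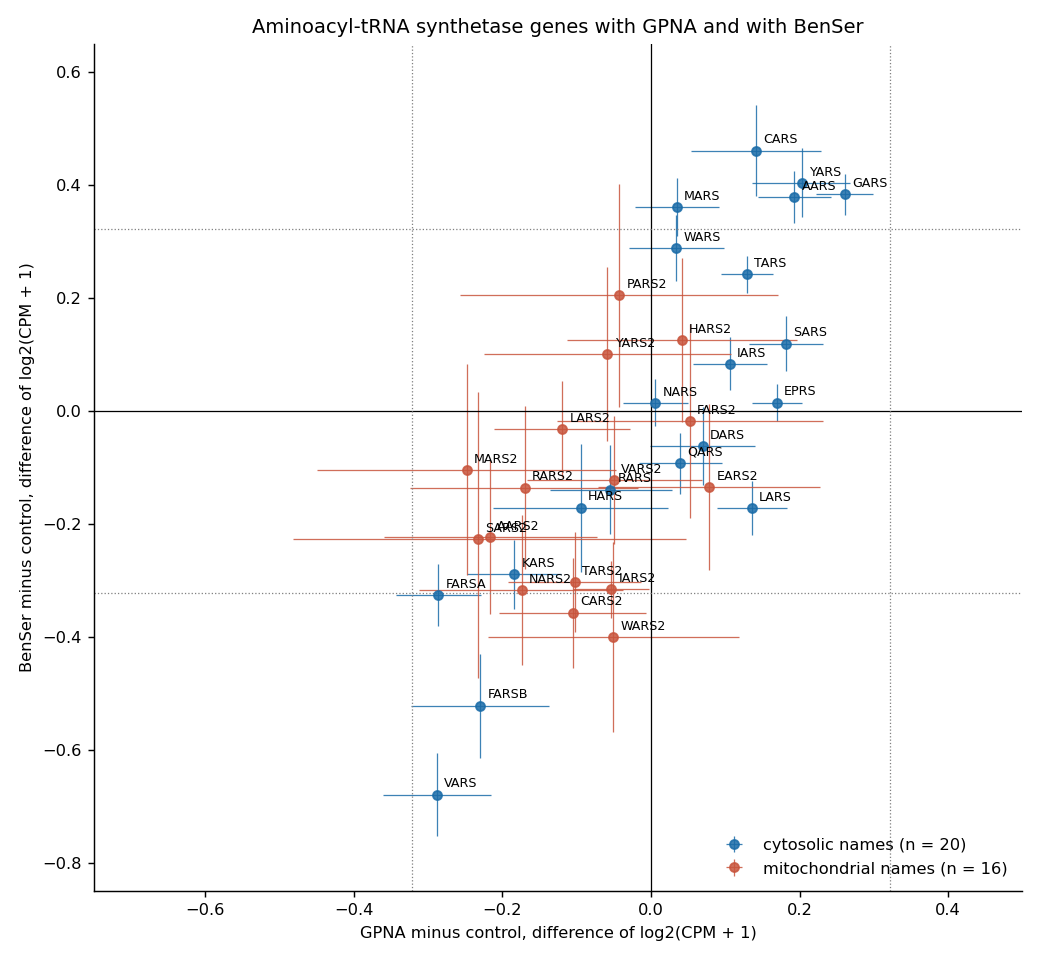
Difference of log2(CPM + 1) from the control with GPNA (horizontal axis) and with BenSer (vertical axis) for the 36 members, with 95% intervals for counting error and dotted lines at 25% higher and 20% lower. Both axes use the same control libraries, so a point's place on one is not independent of the other. CARS, YARS, GARS, AARS and MARS lie above the upper line for BenSer, VARS is at the lower end with -0.68, and no point passes a dotted line for GPNA.

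Most mitochondrial members were below the control, while the cytosolic members were mostly above it with GPNA and split with BenSer. The median difference of the 20 cytosolic members was 0.054 with GPNA, with 14 above 0, and 0.015 with BenSer, with 11 above 0. The median of the 16 mitochondrial members was -0.081 with GPNA and -0.14 with BenSer, with 13 below 0 each time. All genes compared had medians of -0.028 with both compounds, and 56.7% of them were below 0 with GPNA and 55.4% with BenSer. Under TMM scaling, which brings the median of all genes to 0.002, the medians with GPNA were 0.093 (cytosolic) and -0.044 (mitochondrial), and those with BenSer 0.061 and -0.093. This scaling left 13 mitochondrial members below 0 with GPNA and 11 with BenSer, against 49.5% and 49.7% of all genes. With BenSer the cytosolic members were spread from -0.68 to 0.46 around a median close to 0, and the median was -0.003 without the second control library and 0.033 without the first. With 1 sample per group the difference between the name groups has no test.

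The summed level showed the same order. The reads of the 20 cytosolic members together came to 2254 CPM in untreated cells, 2386 in GPNA and 2402 in BenSer, which is 5.84% (interval 4.97% to 6.72%) and 6.55% (5.71% to 7.39%) above the control. Such a sum weighs the abundant genes most. From control to BenSer, GARS went from 203.8 to 266.1 CPM, TARS from 256.6 to 303.7 and AARS from 127.4 to 165.9. Of the 20 cytosolic members 9 were below 0 with BenSer. The 16 mitochondrial members came to 374.9 CPM in the control, 354 under GPNA and 322.5 under BenSer, which is -5.59% (-7.54% to -3.60%) and -14.0% (-15.7% to -12.2%). CPM are shares of a library, and lower RNA content per cell and fewer cells cannot be told apart from them. The 2 treatments share their control libraries.

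For 13 amino acids both a cytosolic and a mitochondrial member were measured, and the pairs show the separation enzyme by enzyme. With GPNA the cytosolic member was above its mitochondrial partner in 11 of 13 pairs, with a median gap of 0.23, and the intervals of the partners were apart in 8 of these. With BenSer it was above in 9 of 13, all with intervals apart, with a median gap of 0.35 over the 13 pairs. Among the 13 pairs the mitochondrial partner was above, with intervals apart, in 1 with GPNA (valine) and 3 with BenSer (valine, histidine and leucine). Phenylalanine, glutamate and proline fell outside these pairs, as FARSA, FARSB and EPRS have no partner of the same symbol. FARS2, for phenylalanine, was above both subunits with intervals apart, at 0.052 with GPNA against -0.29 (FARSA) and -0.23 (FARSB). With BenSer it was at -0.018 against -0.33 and -0.52. EPRS (0.17 and 0.015) was above EARS2 (0.078 and -0.135) with both compounds, and above PARS2 (-0.043 and 0.20) with GPNA only. The cysteine pair had the widest gap with BenSer, with CARS at 0.46 and CARS2 at -0.36. CARS2 had 33.0 and 34.2 CPM in the control and 26.4 and 25.6 with BenSer, so its treated libraries lay below where those of CARS lay above.

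The tryptophan pair had a gap of 0.69 with BenSer, the alanine pair 0.60 and the threonine pair 0.55. AARS2 was lower by about as much with either compound, with 14.9 and 16.0 CPM in the control, 14.0 and 12.4 under GPNA and 13.2 and 13 under BenSer. TARS2 had 41.3 and 40.3 CPM in the control, 36.9 and 38.9 under GPNA and 33.4 and 32.4 under BenSer (-0.10 and -0.30). The treated libraries of both genes lay below their control libraries.

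IARS2 had 125 and 129 CPM in the control, 121 and 124 under GPNA and 101 and 103 under BenSer (-0.054 and -0.32). Without IARS2, the most abundant of them, the summed level of the mitochondrial members differed from the control by -6.56% (-8.93% to -4.12%) with GPNA and by -11.0% (-13.2% to -8.78%) with BenSer, a sum chosen after the values were seen. The valine pair went the other way, with VARS at -0.68 and VARS2 at -0.12 with BenSer. So did histidine and leucine with BenSer, where HARS2 (0.125) was above HARS (-0.17) and LARS2 (-0.032) above LARS (-0.17). HARS and HARS2 lie head to head on chromosome 5, their promoter windows share 184 bases, and neither window held the core. They are paralogues, and how reads that fit both were counted is not given in the sources used here. In the arginine pair RARS and RARS2 had the same difference with BenSer (-0.14 each).

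**Figure D4:**
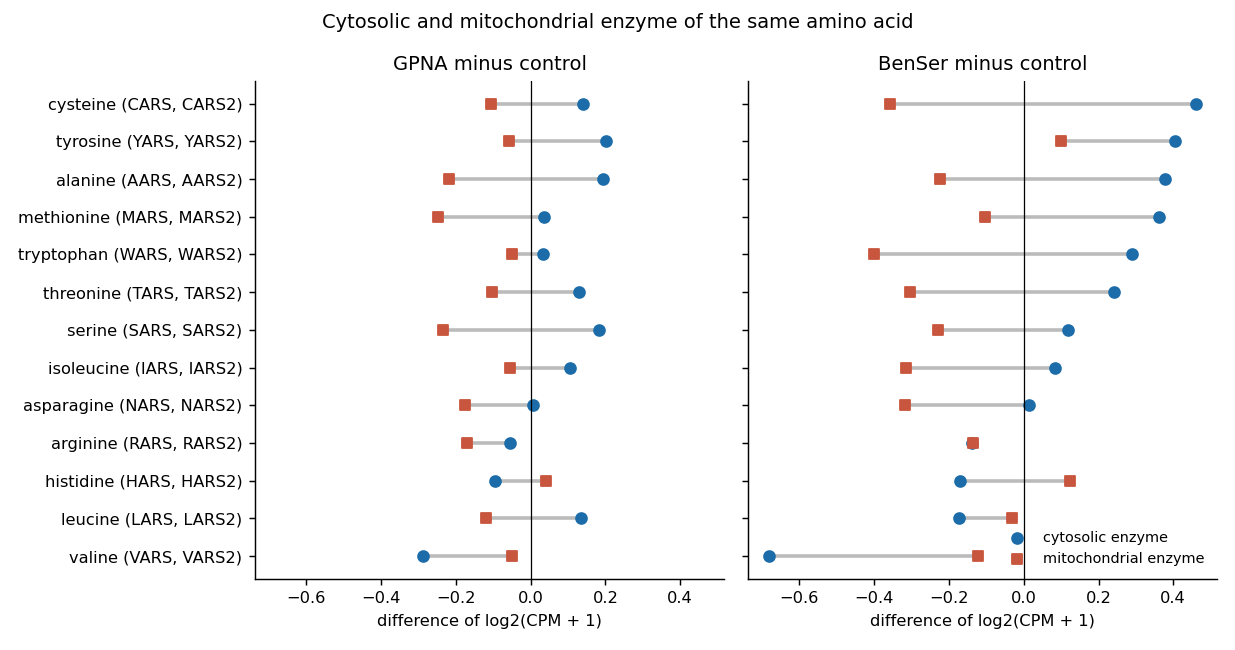
Difference of log2(CPM + 1) from the control for the cytosolic (blue circle) and mitochondrial (red square) enzyme of 13 amino acids, paired by symbol. GPNA is on the left and BenSer on the right. The cytosolic enzyme lies to the right in 11 pairs with GPNA and in 9 with BenSer, and the valine pair, with VARS at -0.68 with BenSer, runs in the opposite direction.

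Among the remaining mitochondrial members, NARS2 was lower with both compounds (-0.17 and -0.32). RARS2, LARS2 and MARS2 had intervals below 0 with GPNA only (-0.17, -0.12 and -0.25), while with BenSer their intervals reached 0, and a difference between the compounds was not detectable for RARS2 and MARS2 at this depth. FARS2, EARS2 and HARS2 had intervals that reached 0 with both compounds. PARS2 (249 control reads) had 5.81 and 4.94 CPM in the control, 5.12 and 5.27 under GPNA and 6.22 and 6.48 under BenSer. It was the sole mitochondrial member with an interval above 0 with BenSer (0.20, 0.0070 to 0.40). YARS2, the sole mitochondrial member with the core in its window, had -0.059 with GPNA and 0.10 with BenSer, and its libraries overlapped the control with both. SARS2 had 0.603 and 0.433 CPM in the control and 0.280 and 0.313 with BenSer, too few reads for its interval (-0.47 to 0.034) to leave 0.

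The members were also grouped by the carrier of their amino acid. The 6 cytosolic enzymes for ASCT2 substrates (AARS, SARS, CARS, TARS, NARS and QARS) were all above 0 with GPNA, with a median of 0.14, and 5 of 6 were above 0 with BenSer, with a median of 0.18. The 9 for LAT1 substrates had medians of 0.034 and -0.17, with MARS, YARS and WARS at one end and VARS, FARSA and FARSB at the other with BenSer. The 5 mitochondrial enzymes for ASCT2 substrates (AARS2, CARS2, NARS2, SARS2 and TARS2) were below 0 with both compounds, with medians of -0.17 and -0.30. Among the cytosolic enzymes of this group QARS was below 0 with BenSer and NARS was flat with both compounds.

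Of the cytosolic enzymes, 8 belong to the multisynthetase complex, a large assembly held together by the scaffold proteins AIMP1, AIMP2 and EEF1E1. With BenSer their median was -0.078 and MARS alone was at least 25% higher, whereas the 12 outside it had a median of 0.18, with AARS, CARS, GARS and YARS at least 25% higher and VARS, FARSA and FARSB at least 20% lower. With GPNA the medians were 0.054 and 0.082. The scaffold genes stayed near the control with GPNA (0.0077, -0.044 and -0.076), and with BenSer the interval left 0 in EEF1E1 alone (-0.23, -0.43 to -0.025). The split by aminoacyl class, which follows the fold of the catalytic domain, gave medians of 0.039 for 9 class I and 0.038 for 10 class II enzymes with GPNA, and 0.084 and -0.024 with BenSer.

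Set beside the promoter windows printed above, the 7 cytosolic members with the core were all above 0 with both compounds, with medians of 0.13 with GPNA (range 0.0059 to 0.26) and 0.36 with BenSer (0.015 to 0.46). Of the 9 cytosolic members whose window lacked it, 4 were above 0 with GPNA (median -0.055) and 3 with BenSer (median -0.14). AARS, CARS, GARS and MARS, which were at least 25% higher with BenSer, all have the core, and YARS is without an entry. NARS has the core in the same 8 bases on the other strand and was flat. EPRS, SARS and WARS were above 0 with both compounds without the core in these windows, which says nothing of sequence outside them. Among all genes with an entry, those with the core had medians of 0.00060 with GPNA and 0.033 with BenSer, against -0.037 and -0.035 for the rest.

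**Figure D5:**
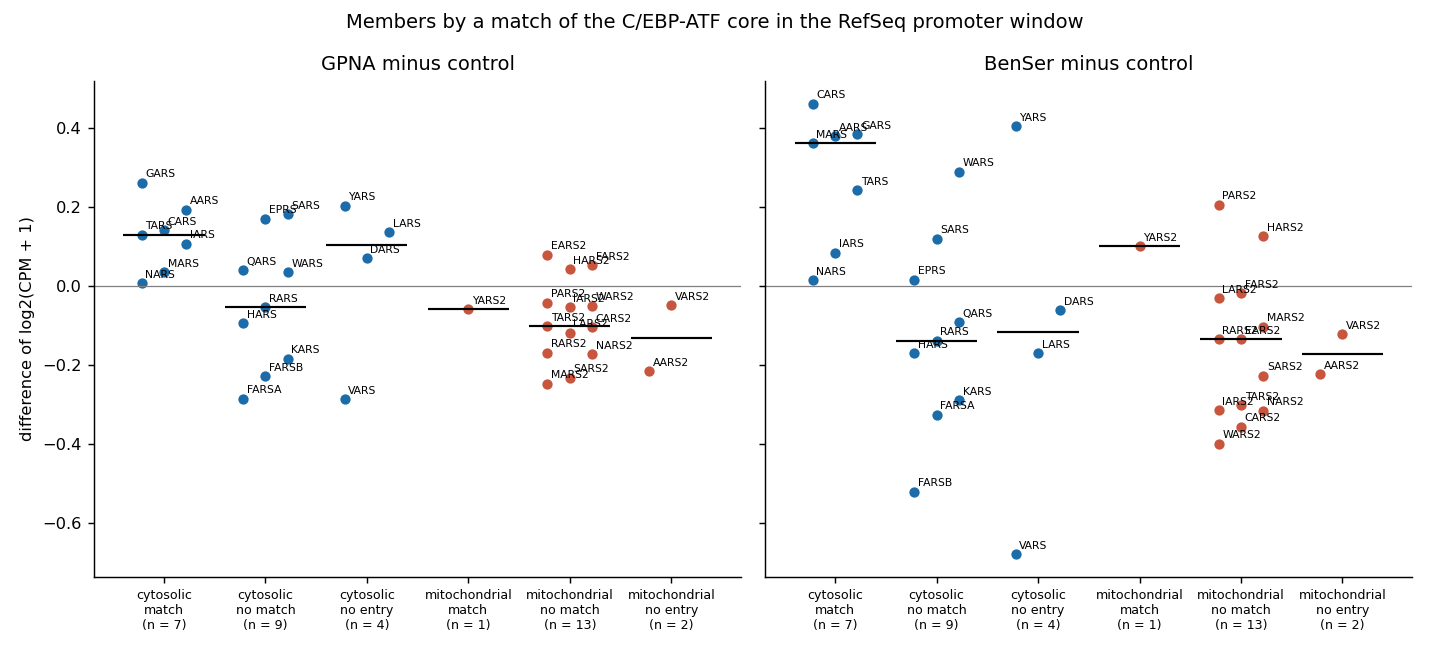
Difference of log2(CPM + 1) from the control, with GPNA (left) and BenSer (right), for members grouped by name and by whether the RefSeq promoter window held the C/EBP-ATF core, lacked it or had no entry. Black lines are medians, and the 7 cytosolic members with the core lie between 0.015 and 0.46 with BenSer, all above 0.

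Other genes of tRNA charging and its neighbouring steps lay mostly below the control with BenSer, where 55.4% of all genes were below 0. Of 12 charging cofactors, none was at least 25% higher with BenSer, against 7.36% of all genes. MTFMT, which formylates the mitochondrial initiator tRNA, was at least 20% lower (-0.44). Of 21 genes of tRNA maturation and export, none was at least 25% higher with BenSer and 7 were at least 20% lower, with a median of -0.20. Over all genes 10.3% were at least 20% lower. With BenSer 4 of the 21 were above 0, the highest being the tRNA exporter XPOT at 0.27 (0.24 to 0.31). XPOT was at 0.16 with GPNA (0.12 to 0.20). In the cytosolic elongation list, 4 of 5 genes were at least 20% lower with BenSer, with EEF1B2 the lowest at -0.63, and in the list of mitochondrial translation factors 2 of 11 were (ICT1 and MRRF).

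The genes listed for the response to uncharged tRNA, from its sensing to its targets, differed by more than the synthetases. Of 14, 4 were 1.5-fold higher with GPNA and 8 with BenSer, with medians of 0.39 and 0.71. Over all genes 0.34% and 1.96% were. ASNS, the asparagine synthetase that gives the pathway its best known target, was at 0.71 with GPNA and 1.18 with BenSer, and ATF4 itself at 0.31 and 0.55. The 14 include the kinase EIF2AK4, which senses uncharged tRNA, and GCN1L1. Both were slightly lower with GPNA (-0.10 each) and with BenSer (-0.13 and -0.034). The highest synthetase values, 0.26 for GARS with GPNA and 0.46 for CARS with BenSer, were below that of ASNS with the same compound.

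Set directly against each other, BenSer and GPNA libraries differed in the synthetases without the control entering, though the doses were not matched. No member was 1.5-fold higher or lower in BenSer than in GPNA, against 1.05% and 0.813% of 19056 genes. MARS was at least 25% higher (0.33, 0.28 to 0.38), against 6.86% of all genes, and VARS (-0.39, -0.47 to -0.32) and WARS2 (-0.35, -0.52 to -0.18) were at least 20% lower, against 7.08%. MARS lay just above the threshold. With a pseudocount of 5, VARS alone passed a threshold. With CPM over the reads on listed genes no member was at least 25% higher, and LARS joined VARS and WARS2. CARS (0.32), WARS (0.26) and PARS2 (0.25) followed MARS at the upper end, and LARS (-0.31) followed WARS2 at the lower. The name groups had medians of -0.051 (cytosolic) and -0.039 (mitochondrial). In BenSer against GPNA the mitochondrial sum was lower, at -8.90% (-10.7% to -7.06%). The cytosolic sum was at 0.672%, with an interval that includes 0 (-0.0822% to 1.43%).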

How the data were processed

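Total RNA of untreated, GPNA-treated and BenSer-treated PC-3 cells was sequenced (stranded, paired-end), mapped by the authors to hg19/GRCh37.p13 with TopHat2 and counted per gene. The processing notes of the submitters also name Bowtie2, DESeq and HTSeq 0.6.2p2. The strand setting of the counting is not given in the sources used here. Although their columns are headed count, the values that the authors deposited are CPM, the reads of a gene over the library total. All values were whole reads within 0.01 read, so reads were recovered. Each table has 4 columns per group, and those numbered 1 and 2, which carry labelled sample names, were used. The authors tested 4 replicates per group. The other 8 column entries match no labelled sample and were not used here. Results of the authors' own exact test (fold change, average CPM, p-value and adjusted p) are in the tables and were left aside.

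Mean CPM of the libraries of a group were compared on log2(CPM + 1), where either group had at least 5 reads on average. This scale understates changes of low genes. Intervals are exact Clopper-Pearson intervals at 95% on merged reads, and reads are not independent molecules, so they cover counting error only. The libraries of a group cannot be shown to come from separate cultures. A test of the libraries, not of the treatments, used limma 3.58.1 in R 4.3.3 with Benjamini-Hochberg adjustment, and edgeR 4.0.16 and DESeq2 1.42.0 on recovered reads as alternatives. Scripts were tested on simulated data. Lengths are of Ensembl canonical transcripts in GENCODE lifted to GRCh37. Promoter windows come from RefSeq on GRCh38.p14 (30 of 36 members matched by symbol), and a gene with several windows counted as matched if any held the core. Calculations used Python 3.11.15 (pandas 2.3.3, scipy 1.17.1, numpy 2.4.6), and matplotlib 3.10.9 drew the plots.

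Members, groupings and lists were chosen with earlier results of these data known. All members are accounted for, and values per library are given for the 6 highest and 3 lowest members of each comparison, for GARS, KARS, EPRS and QARS, and for further genes chosen after their values were seen. Alternatives were other pseudocounts, scalings, filters and fold thresholds, and leaving out single libraries. Some genes of the lists are not reported here.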

Additional observations from a re-analysis of the deposited data

How the results depend on the processing

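With 1 sample per group, the libraries used here give no estimate of the spread between cultures, and depth limits the low members, SARS2 above all. Of 864 member values recomputed under other pseudocounts, scalings and sets of libraries, none whose interval lay away from 0 changed sign, and 9 left their counting interval. Of these, 7 were under TMM scaling, which moved GARS with BenSer to 0.429, and 2 were SARS2 with a pseudocount of 0.1 (-0.657 with GPNA and -0.641 with BenSer). That pseudocount also made the count of members 1.5-fold lower 1 with GPNA and 2 with BenSer, beside 652 of 18828 and 1397 of 18976 genes. The counts at least 25% higher and 20% lower were 5 and 5 with BenSer. They were 6 and 3 under TMM scaling (1688 and 1521 of 18976 genes). With a pseudocount of 0.1 they were 5 and 7 (2851 and 3853), and with 5 they were 5 and 2 (675 and 935). For BenSer against GPNA the counts were 1 and 2. TMM scaling gave 2 and 2 (1368 and 1303 of 19056 genes), as did a pseudocount of 0.1 (2745 and 3324). A pseudocount of 5 gave 0 and 1 (591 and 521), and CPM over the reads on listed genes 0 and 3 (1654 and 2277). No member was 2-fold lower with BenSer (0). Leaving out single libraries, the cytosolic median ran from 0.041 to 0.077 with GPNA and from -0.003 to 0.033 with BenSer, the mitochondrial from -0.136 to -0.081 and from -0.203 to -0.141, and the counts at 1.5-fold did not change. The difference of the cytosolic and mitochondrial medians ran from 0.146 to 0.178 with GPNA, from 0.155 to 0.218 with BenSer and from -0.027 to 0.03 for BenSer against GPNA.

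The limma comparison of libraries called 502 genes with GPNA, 5215 with BenSer and 4137 between the compounds at an adjusted p under 0.05. With GPNA this became 3162 in edgeR, 1257 in DESeq2, 41 with a pseudocount of 0.1, 3 with the replicate number as a block and 0 to 2 without single libraries. With BenSer it became 1978 to 4439 without single libraries, and between the compounds 6614 in edgeR and 222 to 3618 without single libraries. The other totals of calls stayed within 1.5 times, although with GPNA the calls lower went from 273 to 111 under TMM scaling. Members called higher and lower with GPNA were 0 and 0 in limma, where 1.19% and 1.42% of all genes were called. They were 10 and 4 in edgeR (all genes 7.63% and 8.83%) and 8 and 3 in DESeq2 (2.9% and 3.64%). In limma they were 7 and 10 with BenSer (all genes 11.1% and 16%) and 5 and 6 between the compounds (10.6% and 10.9%). Libraries of the same number did not deviate together, with correlations of -0.00154 to 0.0171, so the number does not pair them. The cause of these shifts was not tested.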
